A study of Homo sapiens with 15 samples.

Results

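Transcripts of 10 glutathione S-transferase genes were examined across OVCAR4 and 4 platinum-resistant lines derived from it. The genes were taken by symbol from a table of log2 RPKM (reads scaled to gene length and library size) for 16604 genes, and all 10 were found there. OVCAR4 was established from a high-grade serous ovarian carcinoma, and the group labelled Ovcar4Parental is described as sensitive to carboplatin and cisplatin. Ov4Cis was selected from it in rising concentrations of cisplatin, and Ov4Carbo in rising concentrations of carboplatin. Ov4Carbo4 and Ov4Carbo7 are lines that each grew from a single cell of Ov4Carbo, so each stands for 1 clone, and both are labelled carboplatin resistant. All lines were grown in DMEM with serum, and 3 biological replicates were measured per line, 15 samples in all. Whether drug was present at harvest is not given in the sources used here.

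Glutathione S-transferases join the thiol of glutathione to electrophilic compounds, which are then exported from the cell. Soluble enzymes of the pi, mu, alpha, omega and kappa classes are encoded by the GSTP, GSTM, GSTA, GSTO and GSTK genes. A separate membrane family, to which MGST1, MGST2 and MGST3 belong, sits in the endoplasmic reticulum and mitochondrial outer membrane and also reduces lipid hydroperoxides. The family is studied in platinum resistance because glutathione binds platinum compounds, and several of its genes are known targets of the transcription factor NRF2.

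The median sample value was between 2.768 and 2.77 log2 RPKM in every sample, as quantile normalization produces, so differences in total RNA between lines cannot be seen. The depth of each library is unknown, and precision could be judged from the replicate spread alone. Replicates of Ov4Carbo were the least alike, with root-mean-square differences over all genes of 0.572 to 0.772 log2 units against 0.299 to 0.558 in the other lines. The sample titles carry numbers in 2 series, and Ov4Carbo4, Ov4Carbo7 and replicate 1 of Ov4Carbo make up the first, with 7 samples. Whether the series are batches is not stated, and between the clones and the parental line they cannot be told apart from the lines except through Ov4Carbo. A model term for the title series therefore rests on replicate 1 of Ov4Carbo set against its replicates 2 and 3, wherever it is used below. Of 10 markers of serous ovarian cancer, PAX8 stood between 5.66 and 6.87 log2 RPKM in all samples, while WT1 stayed between -6.37 and -0.98. Of the 10, 7 were called lower than in the parental line in Ov4Cis and 2 in Ov4Carbo, then 4 in Ov4Carbo4 and 6 in Ov4Carbo7. Among all genes 7.41, 6.93, 7.7 and 7.75% were called lower in these lines. WT1 was called higher in Ov4Cis, Ov4Carbo and Ov4Carbo4 (3.56, 2.38 and 2.81, limma adjusted p = 0.000147, 0.00375 and 0.000916), from a parental mean of -5.07. In Ov4Cis the epithelial genes KRT7 and CDH1, singled out after their values were seen, averaged -0.57 and -3.52, against 8.28 and 4.63 in the parental line. Summed RPKM of these markers was 852 to 1040 in parental samples, 335 to 436 in Ov4Cis, 474 to 516 in Ov4Carbo, 527 to 590 in Ov4Carbo4 and 404 to 419 in Ov4Carbo7. Of the 2 endothelial genes measured, CDH5 averaged 5.13 in Ov4Cis and 2.15 to 4.42 in the other lines. VWF averaged -0.55 in Ov4Cis against -0.19 in the parental line (log2 fold change -0.35, limma adjusted p = 0.67). The summed fibroblast markers stayed between 4.04 and 14.6 RPKM, which hides changes of single genes. COL1A2 fell in Ov4Cis, Ov4Carbo, Ov4Carbo4 and Ov4Carbo7 (-4.24, -5.18, -5.8 and -4.95). PDGFRB fell in Ov4Carbo, Ov4Carbo4 and Ov4Carbo7 (-2.92, -1.67 and -2.35) and rose in Ov4Cis (1.23). LUM rose in Ov4Carbo and Ov4Carbo7 (2.16 and 2.73, limma adjusted p = 0.0256 and 0.00554), and COL1A1 in Ov4Carbo4 (1.21, limma adjusted p = 0.000164). No sample exceeded -1.22 log2 RPKM for LUM or -1.06 for PDGFRB, so both changed at very low levels.

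Sequence first matters for which members can be told apart by reads. Every run of 50 bases in the principal GENCODE v29 transcript of each member was looked up in the transcripts of all other genes. For GSTM2, 74.5% of the runs occurred in another gene, 46.2% in GSTM1 and 40.2% in GSTM4. The share was 18.6% for GSTM4, 5.9% for GSTM3 and 3.4% for GSTO1, the last with the pseudogene GSTO3P. For GSTP1, GSTA4, GSTK1, MGST1, MGST2 and MGST3 it was 0.0%. The coding sequences of GSTM2 and GSTM4 were identical at 585 of 657 bases, against 471 of 657 for GSTM2 and GSTM3. The stretch below, coding bases 121 to 180 of GSTM2 and GSTM4 and 133 to 192 of GSTM3, shows the problem, and capitals mark bases that differ from GSTM2.
GSTM2: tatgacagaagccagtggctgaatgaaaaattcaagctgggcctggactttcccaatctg
GSTM4: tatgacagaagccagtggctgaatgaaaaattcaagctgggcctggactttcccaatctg
GSTM3: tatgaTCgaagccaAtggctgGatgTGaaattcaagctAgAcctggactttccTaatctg
GSTM2 and GSTM4 do not differ there, so a read lying wholly within it cannot be assigned to either gene. GSTM3 differs at 9 of the 60 bases. A read that reaches beyond the stretch can cover bases that differ, and how shared reads were counted is not given. Values of GSTM2 and GSTM4 are therefore uncertain, and those of GSTM3 and the 3 membrane enzymes are little affected.

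RefSeq promoter windows (GRCh38.p14) were given for 9 of the 10 members, all but MGST2, with 3 start sites for MGST1. The 250 bases before each start were searched on both strands for the antioxidant response element TGACNNNGC, which NRF2 binds with small MAF proteins. They were also searched for the AP-1 element TGACTCA and the Sp1 box GGGCGG. The antioxidant element occurred in 10.9% of 35116 windows of the same length over all genes, AP-1 in 4.2% and the Sp1 box in 42.6%. Among the members it was found in GSTP1, GSTO1 and GSTA4. Each match is shown within 30 bases, read 5′ to 3′ on the gene's strand, with the element in capitals.
GSTP1, chr11:67583736-67583765, plus strand: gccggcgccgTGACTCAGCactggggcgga
GSTO1, chr10:104254656-104254685, plus strand: ggcggagggaTGACTGAGCatttataactt
GSTO1, chr10:104254721-104254750, plus strand: cgagatgcttTGACACAGCcccttaagatg
GSTA4, chr6:52995285-52995314, minus strand: gtctcacccagccgggaccgcTGACCTGGC
The GSTP1 element begins 66 bases before the start and overlaps an AP-1 match. The windows of MGST1 and GSTM3, the members that differed most between lines, had no antioxidant or AP-1 match. Those of GSTK1, GSTM2, GSTM4 and MGST3 had none either, and sequence outside the 250 bases was not searched. Windows of MGST1 and GSTM3 are printed because they differ in base composition, with Sp1 boxes in capitals. One MGST1 window (plus strand) held 12 CG pairs and 2 Sp1 boxes, while the GSTM3 window (minus strand) held 1 CG pair and none, where the median over all windows was 11 pairs. The other MGST1 start sites had 3 and 19 CG pairs.
MGST1, chr12:16347395-16347644: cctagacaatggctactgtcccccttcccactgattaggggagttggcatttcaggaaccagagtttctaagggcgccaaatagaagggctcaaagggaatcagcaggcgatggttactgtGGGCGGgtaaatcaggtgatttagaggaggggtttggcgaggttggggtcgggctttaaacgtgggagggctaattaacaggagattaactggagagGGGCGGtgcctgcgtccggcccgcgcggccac
GSTM3, chr1:109741039-109741288: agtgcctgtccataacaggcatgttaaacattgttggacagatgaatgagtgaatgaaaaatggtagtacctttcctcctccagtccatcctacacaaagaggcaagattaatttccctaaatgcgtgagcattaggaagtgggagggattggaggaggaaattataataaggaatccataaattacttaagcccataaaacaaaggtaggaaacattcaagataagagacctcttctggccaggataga
These matches describe letters only, and binding was not measured.

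The 10 genes spanned a wide range of levels. GSTP1 stood at 8.33 log2 RPKM over the 15 samples, above all but a small share of genes (percentile 99.8), and GSTK1 at 5.46. MGST3 and MGST1 followed at 4.74 and 4.49, and MGST2, GSTO1, GSTM3, GSTM4 and GSTA4 lay between 3.76 and 1.74. GSTM2 was lowest at 0.15. A moderated F-test (limma, Benjamini-Hochberg adjustment over all genes) gave adjusted p under 0.05 for differences among the 5 lines in all 10 members, where 76.9% of all genes passed. The range of the line means was 0.55 to 5.39 log2 units, with a median of 0.94 against 0.86 over all genes. That range was larger in MGST1 than in 96.9% of genes and in GSTM3 than in 90.3%. The plot of log2 RPKM by line shows these levels.

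**Figure D1:**
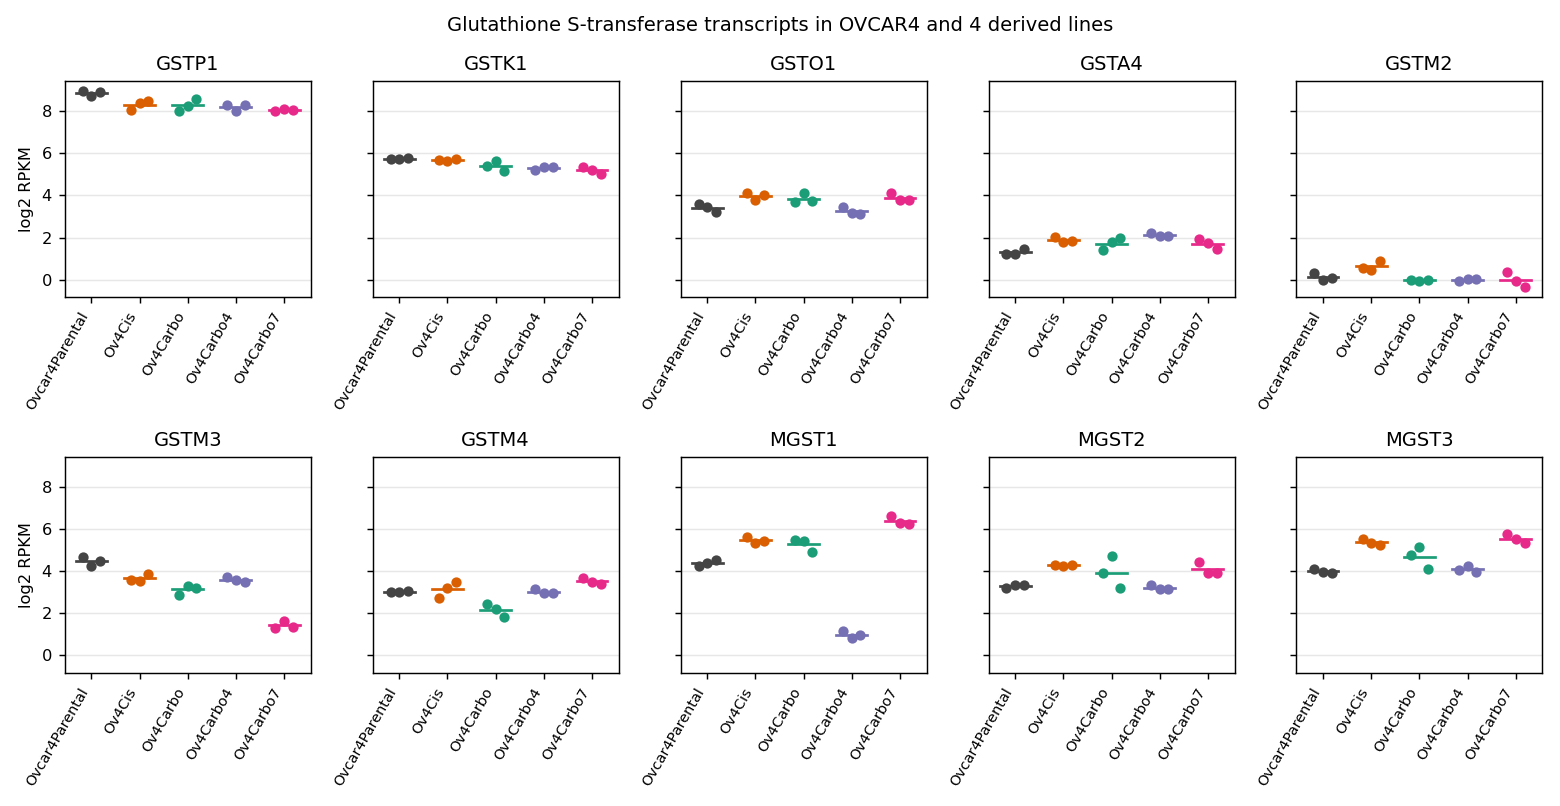
Log2 RPKM (vertical axis) of the 10 genes in each of the 5 lines (horizontal axis). Points are replicates 1 to 3 from left to right and bars are line means. MGST1 drops to 0.99 in Ov4Carbo4 and reaches 6.38 in Ov4Carbo7, GSTM3 drops to 1.43 in Ov4Carbo7, and GSTP1 stays between 7.99 and 8.95.

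Between 2 lines, a change was called at a limma adjusted p under 0.05 together with a log2 fold change of 1 or more in either direction. Against the parental line, 2 of the 10 members changed in Ov4Cis (MGST1 and MGST3, both up), where 15.9% of all genes were called, 8.46% higher and 7.41% lower. In Ov4Carbo 1 changed (GSTM3, down), against 12.7% of all genes, 5.76% higher and 6.93% lower. In Ov4Carbo4 1 changed (MGST1, down), against 15.1%, 7.43% higher and 7.7% lower. In Ov4Carbo7 3 changed (MGST1 and MGST3 up, GSTM3 down), against 17.0%, 9.26% higher and 7.75% lower. With 10 genes, nothing particular to the family is read from 1 to 3 calls beside these shares. With the adjusted p alone and no minimum fold, 8 members passed in Ov4Cis (36.2% of all genes), 6 in Ov4Carbo (34.0%), 5 in Ov4Carbo4 (39.7%) and 7 in Ov4Carbo7 (42.6%). The median log2 fold change of the 10 members stood at 0.54 for Ov4Cis and 0.13 for Ov4Carbo, against 0.04 and 0.03 over all genes. For Ov4Carbo4 it was -0.14 and for Ov4Carbo7 0.43, against 0.07 and 0.02. The 4 comparisons share the parental samples. The plot of differences from the parental line gives all 40 values.

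**Figure D2:**
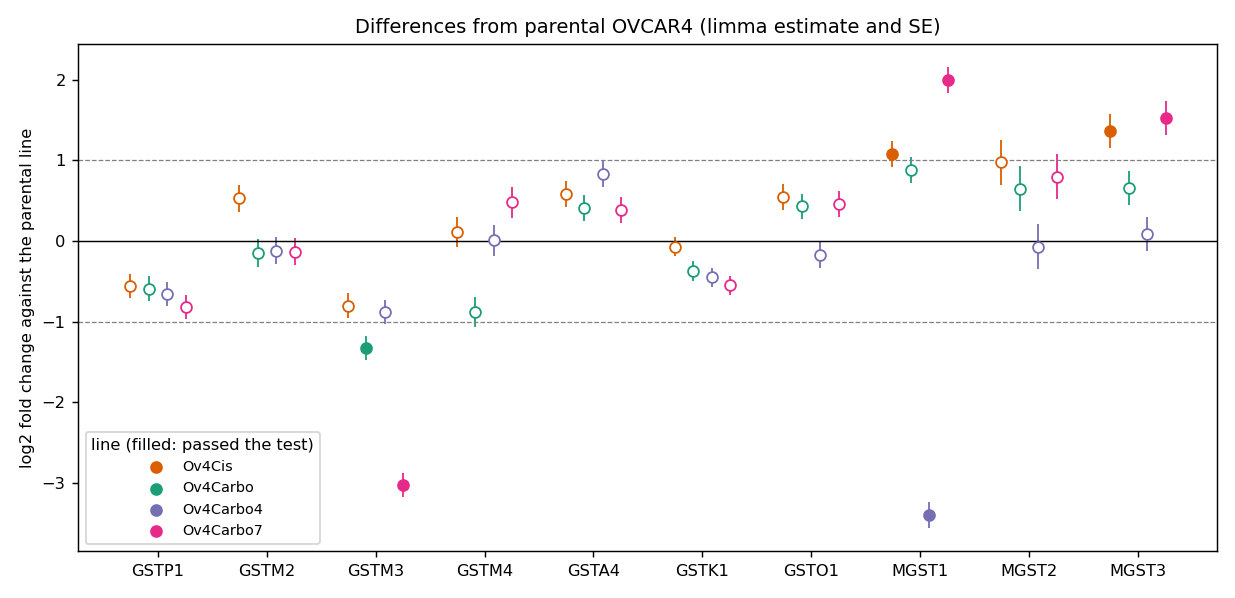
Log2 fold change against the parental line (vertical axis) of each member (horizontal axis) in the 4 derived lines, with the standard error from limma as bars. Filled points passed the adjusted p and fold limits (dashed lines at 1 and -1). MGST1 lies at 2.00 in Ov4Carbo7 and at -3.40 in Ov4Carbo4.

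The membrane enzyme MGST1 (ENSG00000008394), a homotrimer that conjugates glutathione and reduces lipid peroxides, differed most. Its parental replicates stood at 4.25, 4.36 and 4.53 log2 RPKM, those of Ov4Cis at 5.61, 5.35 and 5.43, and those of Ov4Carbo at 5.46, 5.41 and 4.92. Ov4Carbo4 gave 1.16, 0.82 and 0.98, and Ov4Carbo7 gave 6.63, 6.29 and 6.21. The samples of Ov4Carbo4 lay below every other sample and those of Ov4Carbo7 above every other sample. Ov4Carbo and Ov4Cis overlapped each other and lay above the parental line. MGST1 rose 2.11-fold in Ov4Cis (log2 fold change 1.08, SE 0.16, limma adjusted p = 0.000219) and 3.99-fold in Ov4Carbo7 (2.00, SE 0.16, adjusted p = 1.75e-06). It fell 10.5-fold in Ov4Carbo4 (log2 fold change -3.40, SE 0.16, limma adjusted p = 3.38e-08). In Ov4Carbo the difference of 0.88 (adjusted p = 0.00149) missed the fold limit, and without replicate 3 of Ov4Carbo it was 1.05 (adjusted p = 0.000422) and passed.

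The clones thus sat on either side of the population they came from. Against Ov4Carbo, MGST1 fell in Ov4Carbo4 with a log2 fold change of -4.28 (19.4-fold, SE 0.16, limma adjusted p = 8.36e-09). It rose in Ov4Carbo7 by 1.11 (2.17-fold, SE 0.16, adjusted p = 0.000273). The rise in Ov4Carbo7 was close to the fold limit and was lost at 0.94 without replicate 3 of Ov4Carbo, at 0.99 without replicate 1 of Ov4Carbo7 and at 0.92 with a term for the title series. Within the first series, where replicate 1 alone represents Ov4Carbo, the differences were -4.47 for Ov4Carbo4 and 0.92 for Ov4Carbo7. The fit with the series term gave the same values, with adjusted p of 5.68e-07 and 0.0158. Between the clones, which share that series, MGST1 was 42.0-fold higher in Ov4Carbo7 (log2 fold change 5.39, SE 0.16, limma adjusted p = 1.17e-09). Ov4Cis exceeded Ov4Carbo4 22.3-fold (4.48, adjusted p = 2.05e-09). In a bulk population such as Ov4Carbo, a smaller share of cells with the transcript and less of it per cell cannot be told apart.

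MGST3 (ENSG00000143198), a membrane enzyme with glutathione peroxidase activity, rose against the parental line in Ov4Cis and Ov4Carbo7, as MGST1 did. Unlike MGST1, it was not lower in Ov4Carbo4 than in the parental line. Its replicates read 4.11, 3.97 and 3.93 in the parental line, 5.53, 5.34 and 5.24 in Ov4Cis, 4.74, 5.12 and 4.12 in Ov4Carbo, 4.07, 4.25 and 3.97 in Ov4Carbo4 and 5.77, 5.54 and 5.32 in Ov4Carbo7. Ov4Cis and Ov4Carbo7 lay above all parental and Ov4Carbo4 samples, and the parental and Ov4Carbo4 samples overlapped. MGST3 rose 2.58-fold in Ov4Cis (log2 fold change 1.37, SE 0.21, limma adjusted p = 0.00022) and 2.90-fold in Ov4Carbo7 (1.53, SE 0.21, adjusted p = 8.2e-05). In Ov4Carbo it was higher by 0.66 (adjusted p = 0.0281), under the fold limit, and in Ov4Carbo4 the difference was 0.09 (adjusted p = 0.773). It was higher by 1.45 in Ov4Carbo7 than in Ov4Carbo4 (adjusted p = 9.65e-05) and by 1.28 in Ov4Cis than in Ov4Carbo4 (adjusted p = 0.000335). In the order of levels, Ov4Carbo7 and Ov4Cis (5.54 and 5.37) did not differ past the threshold (adjusted p = 0.559), nor did Ov4Carbo4 and the parental line. Ov4Cis was above Ov4Carbo by 0.71 (limma adjusted p = 0.019) and Ov4Carbo above Ov4Carbo4 by 0.57 (adjusted p = 0.0427, replicates overlapping). Ov4Carbo7 was above Ov4Carbo by 0.88 (limma adjusted p = 0.00567). These differences from Ov4Carbo were all under the fold limit.

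MGST2 (ENSG00000085871), which also makes leukotriene C4, was measured at 3.19, 3.33 and 3.34 in the parental line and at 4.28, 4.25 and 4.28 in Ov4Cis. It stood at 3.36, 3.15 and 3.15 in Ov4Carbo4 and at 4.42, 3.91 and 3.92 in Ov4Carbo7. Ov4Carbo was uneven, at 3.89, 4.71 and 3.20, and its samples reached from the parental level to above Ov4Cis. The difference from the parental line was 0.98 in Ov4Cis (SE 0.28, limma adjusted p = 0.0145), just under the fold limit, and 0.80 in Ov4Carbo7 (adjusted p = 0.0353). Without replicate 2 or 3 of the parental line the Ov4Cis value was 1.00 or 1.01 and passed. In Ov4Carbo it was 0.65 (adjusted p = 0.0917), and 1.01 (adjusted p = 0.00484) without replicate 3. MGST2 was higher in Ov4Cis than in Ov4Carbo4 by 1.05 (adjusted p = 0.00881), a call lost on the log2(RPKM + 1) scale at 0.97 and with the series term at 0.98 (adjusted p = 0.172). The 3 membrane enzymes each had their highest mean in Ov4Cis or Ov4Carbo7, as did the soluble members GSTM2, GSTO1 and GSTM4. MGST1 was lowest in Ov4Carbo4. MGST2 also had its lowest mean there, and MGST3 in the parental line. Between Ov4Carbo4 and the parental line, MGST2 and MGST3 did not differ past the threshold (-0.07 and 0.09, limma adjusted p = 0.876 and 0.773).

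GSTM3 (ENSG00000134202), a mu class enzyme, was the one soluble member that changed against the parental line. Its replicates stood at 4.65, 4.26 and 4.48 in the parental line, 3.58, 3.53 and 3.87 in Ov4Cis, 2.88, 3.29 and 3.22 in Ov4Carbo, 3.71, 3.58 and 3.46 in Ov4Carbo4 and 1.32, 1.63 and 1.34 in Ov4Carbo7. Every sample of the 4 derived lines lay below every parental sample, and Ov4Carbo7 lay below all others. GSTM3 fell 8.17-fold in Ov4Carbo7 (log2 fold change -3.03, SE 0.15, limma adjusted p = 4.47e-08) and 2.52-fold in Ov4Carbo (-1.33, SE 0.15, adjusted p = 3.75e-05). In Ov4Cis it was lower by 0.80 on the log2 scale and in Ov4Carbo4 by 0.88 (adjusted p = 0.000996 and 0.000544), both under the fold limit. Against Ov4Carbo it fell in Ov4Carbo7 with a log2 fold change of -1.70 (adjusted p = 1.09e-05), and in Ov4Carbo4 it was higher by 0.45 (adjusted p = 0.0274). Between the clones the difference was -2.15 (Ov4Carbo7 minus Ov4Carbo4, adjusted p = 3.91e-07). The clones therefore differed in opposite directions for MGST1 and GSTM3. Ov4Carbo7 had the higher MGST1 and the lower GSTM3.

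The neighbouring mu genes did not follow GSTM3. GSTM4 (ENSG00000168765) read 3.02, 2.99 and 3.07 in the parental line, 2.72, 3.21 and 3.48 in Ov4Cis, 2.42, 2.20 and 1.81 in Ov4Carbo, 3.16, 2.98 and 2.96 in Ov4Carbo4 and 3.67, 3.47 and 3.38 in Ov4Carbo7. Ov4Carbo lay below all other lines, which spanned 2.72 to 3.67. GSTM4 was higher in Ov4Carbo7 than in Ov4Carbo by 1.36 (2.57-fold, SE 0.19, limma adjusted p = 0.000177), its one called change. Against the parental line it was lower in Ov4Carbo by 0.88 on the log2 scale (adjusted p = 0.00356), and the log2 fold change was -1.02 (adjusted p = 0.00204) without replicate 1 of Ov4Carbo. The differences in Ov4Cis, Ov4Carbo4 and Ov4Carbo7 were 0.11, 0.01 and 0.48 (adjusted p = 0.676, 0.97 and 0.0538). GSTM2 (ENSG00000213366) lay between -0.36 and 0.87 in all samples. Its means were 0.12 in the parental line, 0.65 in Ov4Cis and -0.03 to 0.00 in the 3 carboplatin lines, and it was higher in Ov4Cis than in the parental line by 0.53 (adjusted p = 0.0261). The reads of GSTM2 and GSTM4 can belong to each other or to GSTM1.

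GSTP1 (ENSG00000084207), the pi class enzyme most often studied in drug resistance, was highest in the platinum-sensitive line. Its parental replicates stood at 8.95, 8.72 and 8.88, and the derived lines reached from 7.99 to 8.57, so none overlapped the parental samples. The means were 8.29 ± 0.22 in Ov4Cis and 8.26 ± 0.29 in Ov4Carbo, then 8.19 ± 0.17 in Ov4Carbo4 and 8.03 ± 0.04 in Ov4Carbo7, against 8.85 ± 0.12 in the parental line (SD, n = 3 each). The log2 fold changes were -0.56, -0.59, -0.66 and -0.82, or 1.47 to 1.76-fold lower, with limma adjusted p of 0.0129, 0.0111, 0.00476 and 0.00103. None reached the fold limit, and the derived lines did not differ from each other past the threshold. Among all genes, replicates did not overlap the parental ones for 53.4% in Ov4Cis and 38.4% in Ov4Carbo. The share was 58.1% for Ov4Carbo4 and 56.5% for Ov4Carbo7. GSTP1 and GSTM3 were the 2 members whose samples lay below the parental ones in all 4 lines, as 4.95% of all genes did, and the 4 comparisons share the parental samples.

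The remaining soluble members had small differences. GSTK1 (ENSG00000197448), the kappa class enzyme of mitochondria and peroxisomes, had means of 5.74 ± 0.04 in the parental line and 5.68 ± 0.05 in Ov4Cis (SD, n = 3 each). It stood at 5.38 ± 0.23 in Ov4Carbo, 5.29 ± 0.07 in Ov4Carbo4 and 5.20 ± 0.17 in Ov4Carbo7. It was lower than in the parental line in those 3 carboplatin lines (log2 fold changes -0.37, -0.45 and -0.55, limma adjusted p = 0.0309, 0.00907 and 0.00259), and in Ov4Cis the difference was -0.07 (adjusted p = 0.697). With a term for the title series the F-test of GSTK1 over the lines gave adjusted p = 0.136.

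GSTO1 (ENSG00000148834), an omega class enzyme with thioltransferase activity, followed the order of MGST2. Its means were 3.96 in Ov4Cis, 3.88 in Ov4Carbo7, 3.84 in Ov4Carbo, 3.41 in the parental line and 3.25 in Ov4Carbo4, with SDs of 0.16 to 0.24. No neighbours in that order differed past the threshold. Ov4Cis and Ov4Carbo7 were above the parental line by 0.55 and 0.46 (adjusted p = 0.0151 and 0.0312), and above Ov4Carbo4 by 0.72 and 0.63 (adjusted p = 0.00278 and 0.00496). GSTA4 (ENSG00000170899), an alpha class enzyme that conjugates the lipid peroxidation product 4-hydroxynonenal, had its lowest mean in the parental line, at 1.30 ± 0.16. It was 1.88 ± 0.12 in Ov4Cis and 1.71 ± 0.29 in Ov4Carbo, then 2.13 ± 0.08 in Ov4Carbo4 and 1.69 ± 0.23 in Ov4Carbo7 (SD, n = 3 each). The difference was largest in Ov4Carbo4, at 0.83 (SE 0.16, limma adjusted p = 0.00116). With a term for the title series it became 1.30 (adjusted p = 0.00211). That shift rests on replicate 1 of Ov4Carbo, at 1.39 against a mean of 1.87 for replicates 2 and 3.

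Comparisons among the resistant lines followed the same genes. Between the clones 3 members changed, MGST1, MGST3 and GSTM3, where 20.9% of all genes were called. Replicates of the clones did not overlap for 7 members, against 67.3% of all genes. Ov4Carbo7 had 3 changed members against Ov4Carbo (MGST1, GSTM3 and GSTM4; 13.3% of all genes) and Ov4Carbo4 had 1 (MGST1; 14.2%). Ov4Cis differed from Ov4Carbo4 in the 3 membrane enzymes (16.8%) and from Ov4Carbo7 in GSTM3 alone, which was higher in Ov4Cis by 2.23 (adjusted p = 4.04e-07; 14.7%). Against Ov4Carbo, 0 members changed in Ov4Cis by limma with the fold limit, where 13.8% of all genes were called, and 4 passed the adjusted p alone (34.2% of all genes). The largest of these differences was that of GSTM4, at 0.99 (adjusted p = 0.00148), which was called, at 1.02 or more, without replicate 1 or 2 of Ov4Carbo or replicate 1 of Ov4Cis.

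For each called member, the genes whose values over the 15 samples, centred on their own mean, lay nearest were found among genes with a mean of at least log2 RPKM 1. The distance is the root-mean-square difference, to be read against the member's own spread about its mean. MGST1, with a spread of 1.87 log2 units, had PDZK1IP1 at 0.44, TM4SF1 at 0.56 and CEBPD at 0.66. PDZK1IP1 averaged -2.20 in Ov4Carbo4 and more than 1 in the other lines. GSTM3, with a spread of 1.02, had RNF182 and PLEKHG2 at 0.39 and DAAM1 at 0.42. MGST3 (0.67) had PHLDA2 at 0.20 and RFFL and NXPE3 at 0.27. MGST2 (0.52) had PRR5 at 0.15, MRPL40 at 0.18 and the pseudogene PSMB3P2 at 0.22, and GSTM4 (0.49) had HJURP and SEMA4D at 0.25. No other member was among the nearest genes of any member. The plot of centred line means shows MGST1, GSTM3 and MGST3 with their nearest genes.

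**Figure D3:**
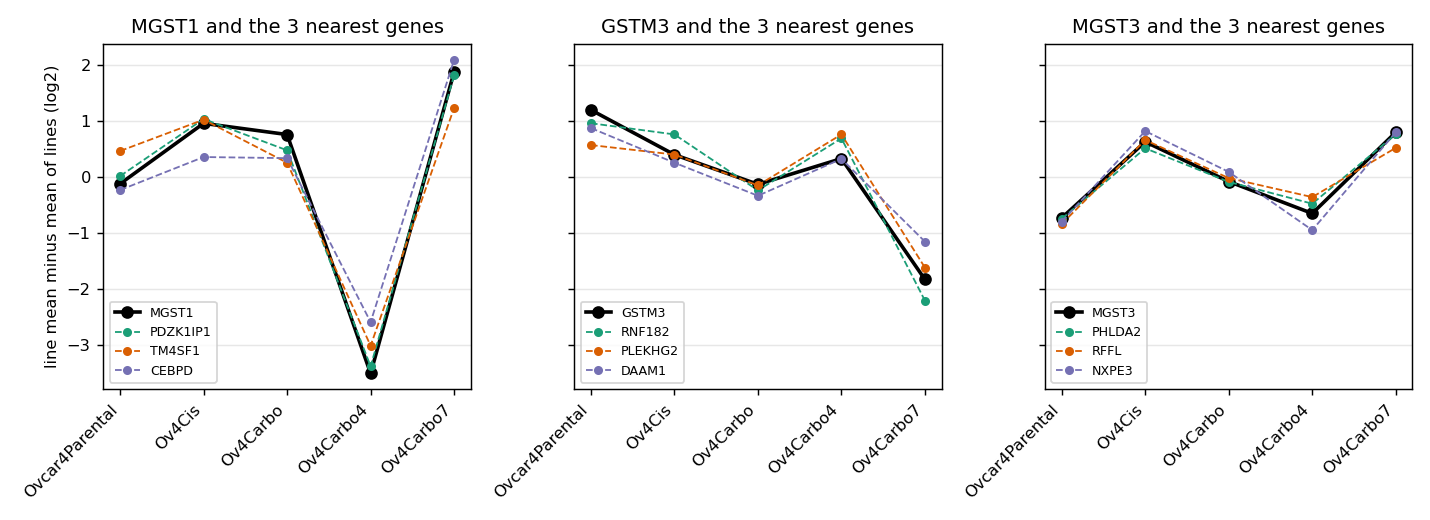
Line means of MGST1, GSTM3 and MGST3 (black) and of the 3 genes nearest to each (dashed) in the 5 lines (horizontal axis), each minus its mean over the lines, in log2 units (vertical axis). MGST1 and PDZK1IP1 are both lowest in Ov4Carbo4 and highest in Ov4Carbo7.

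Other genes of the family and the glutathione pathway were taken from lists. Of 14 further soluble transferase genes, 5 were in the table. GSTO2, the paralog of GSTO1, averaged 2.09 in the parental line, 0.81 in Ov4Cis and 2.18 in Ov4Carbo, then -1.05 in Ov4Carbo4 and 0.74 in Ov4Carbo7. It fell in Ov4Cis (log2 fold change -1.27), Ov4Carbo4 (-3.14) and Ov4Carbo7 (-1.35), with limma adjusted p of 0.00138, 1.33e-06 and 0.000841. On the log2(RPKM + 1) scale the falls in Ov4Cis and Ov4Carbo7 did not reach the fold limit (-0.92 and -0.97), and with the series term the Ov4Carbo7 value was -0.38. Of the membrane family, PTGES, a prostaglandin E synthase, was the one other gene in the table. Its samples stood between -4.50 and 0.14 log2 RPKM, and it was called lower in Ov4Cis (-1.90, adjusted p = 0.03) and higher in Ov4Carbo7 (1.72, adjusted p = 0.0416). Neither was called on the log2(RPKM + 1) scale, at -0.25 and 0.55, and the Ov4Carbo7 value was 0.13 with the series term.

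Of 16 genes of glutathione synthesis, recycling and breakdown in the table, 1 rose and 2 fell in Ov4Cis, 1 rose and 1 fell in Ov4Carbo, 2 fell in Ov4Carbo4, and 1 rose and 2 fell in Ov4Carbo7. That is 2 or 3 of 16 genes a line, where 12.7 to 17.0% of all genes were called. GGT5, a gamma-glutamyltransferase singled out after its values were seen, fell in all 4 lines (-1.41, -4.44, -6.88 and -3.16) from a parental mean of -0.77. On the log2(RPKM + 1) scale those falls were -0.40 to -0.69 and were not called. SLC7A11, the cystine transporter that supplies cysteine for glutathione, averaged 4.01 in the parental line, 4.90 in Ov4Cis and 4.87 in Ov4Carbo, then 2.11 in Ov4Carbo4 and 6.37 in Ov4Carbo7. It rose by 2.37 in Ov4Carbo7 and fell in Ov4Carbo4 (log2 fold change -1.90, limma adjusted p = 2.24e-05 and 0.000152), the same pair of directions as MGST1. GGT1, which cleaves extracellular glutathione, rose in Ov4Cis and Ov4Carbo (2.33 and 2.02, adjusted p = 5.65e-05 and 0.000291), from a parental mean of -1.16. On the log2(RPKM + 1) scale the rise was 1.16 in Ov4Cis, and in Ov4Carbo it was 0.95 and not called. OPLAH, which recycles 5-oxoproline, fell in Ov4Cis (-1.07, adjusted p = 0.0041), a call lost at -0.98 on that scale. CHAC1, an enzyme that degrades glutathione, changed in none of the lines against the parental line, at -1.58, 0.85, -0.78 and 0.46 (adjusted p = 0.11 to 0.646).

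Of 9 peroxidase and glutaredoxin genes, 2 rose and 1 fell in Ov4Cis, 1 rose and 1 fell in Ov4Carbo and in Ov4Carbo7, and 1 fell in Ov4Carbo4. The share of all genes called against the parental line was 12.7 to 17.0%. Nothing particular to these 9 genes is therefore read from the counts. GPX7, an endoplasmic reticulum peroxidase singled out after its values were seen, averaged 0.65 in the parental line. It fell in Ov4Cis, Ov4Carbo and Ov4Carbo7 (-4.64, -2.84 and -6.33, limma adjusted p = 9.06e-07, 0.00011 and 1.33e-07), with values of -1.27, -1.06 and -1.34 on the log2(RPKM + 1) scale. GLRX rose in Ov4Cis, Ov4Carbo and Ov4Carbo7 (1.76, 1.89 and 1.66, limma adjusted p = 3.52e-05, 3.91e-05 and 5.48e-05) and GPX3 in Ov4Cis (1.26, adjusted p = 0.000896). GPX1, an abundant peroxidase, fell in Ov4Carbo4 (-1.12, adjusted p = 1.33e-05). Of 8 genes for the export of conjugates, 1 rose in Ov4Cis and 0 in Ov4Carbo, then 1 in Ov4Carbo4 and 2 in Ov4Carbo7, and 0 fell by limma. Beside the same shares of all genes, nothing particular to these 8 genes is read from the counts. ABCC2, a conjugate exporter singled out after its values were seen, rose in Ov4Cis, Ov4Carbo4 and Ov4Carbo7 (2.94, 1.42 and 2.91, limma adjusted p = 1.07e-05, 0.00298 and 1.22e-05) from a parental mean of -2.68. On the log2(RPKM + 1) scale these were 0.92, 0.28 and 0.91 and none was called. ABCC3 rose in Ov4Carbo7 (1.42, adjusted p = 1.44e-05) and was higher there than in Ov4Carbo4 by 1.85 (adjusted p = 1.43e-06). With the series term its value against the parental line was 0.90 and not called. ABCC4, ABCC5 and ABCC10 did not reach the fold limit against the parental line, with differences between -0.89 and 0.62. Against the parental line, 0 of 5 glyoxalase and mercapturate genes were called by limma in any derived line (12.7 to 17.0% of all genes). With the series term 1 was called higher in each of Ov4Carbo, Ov4Carbo4 and Ov4Carbo7.

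Of 20 NRF2 regulators and classical targets, 11 rose and 0 fell in Ov4Carbo7, with a median log2 fold change of 1.02 against 0.02 over all genes, of which 9.26% were called higher and 7.75% lower. In Ov4Carbo4 0 rose and 3 fell, with a median of -0.14 against 0.07 (7.43% of all genes higher and 7.7% lower). The 3 genes had means under log2 RPKM 1 over all samples, so a filter at that level removed them, and 0 genes were called lower on the log2(RPKM + 1) scale. In Ov4Cis 3 rose and 1 fell (8.46% and 7.41% of all genes), and in Ov4Carbo 3 rose and 0 fell (5.76% and 6.93%), with medians of 0.31 and 0.33. The rises were 2 in Ov4Cis and 1 in Ov4Carbo on the log2(RPKM + 1) scale, and 1 in each after the filter, and the fall in Ov4Cis was called in neither. In Ov4Carbo7 the count was 5 on the log2(RPKM + 1) scale, 7 of 14 after the filter, and 6 with a term for the title series. OSGIN1 rose in Ov4Cis, Ov4Carbo and Ov4Carbo7 by 1.35, 1.76 and 2.40 (limma adjusted p = 8.32e-06, 2.4e-06 and 1.33e-07). In Ov4Carbo4 it was higher by 0.98 (adjusted p = 0.00014), just under the fold limit. NQO1, singled out after its values were seen, rose in Ov4Carbo7 by 1.66 (adjusted p = 8.63e-05). It was higher in Ov4Carbo4 by 0.93 (adjusted p = 0.00583), also under the limit. HMOX1, heme oxygenase, and ME1, malic enzyme, rose in Ov4Carbo7 by 1.22 and 1.03 (adjusted p = 0.00854 and 0.000287), and neither was called with the series term (0.73 and 0.66). ME1 also fell just short of the fold limit on the log2(RPKM + 1) scale. In Ov4Carbo4 the log2 fold change of ME1 was -0.93 (adjusted p = 0.00069), under the limit. AKR1C3, an aldo-keto reductase, rose in Ov4Cis by 3.52 and fell in Ov4Carbo4 (-2.73, adjusted p = 1.27e-06 and 1.42e-05), the fall being -0.58 and not called on the log2(RPKM + 1) scale. AKR1C1 and AKR1C2, singled out after their values were seen, were called in Ov4Carbo7 at 3.43 and 2.80 and averaged -3.34 and -5.27 log2 RPKM in the parental line, and neither was called on that scale. The aldo-keto reductases are closely similar genes whose reads can be shared. The plot of these genes sets the clones side by side.

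**Figure D4:**
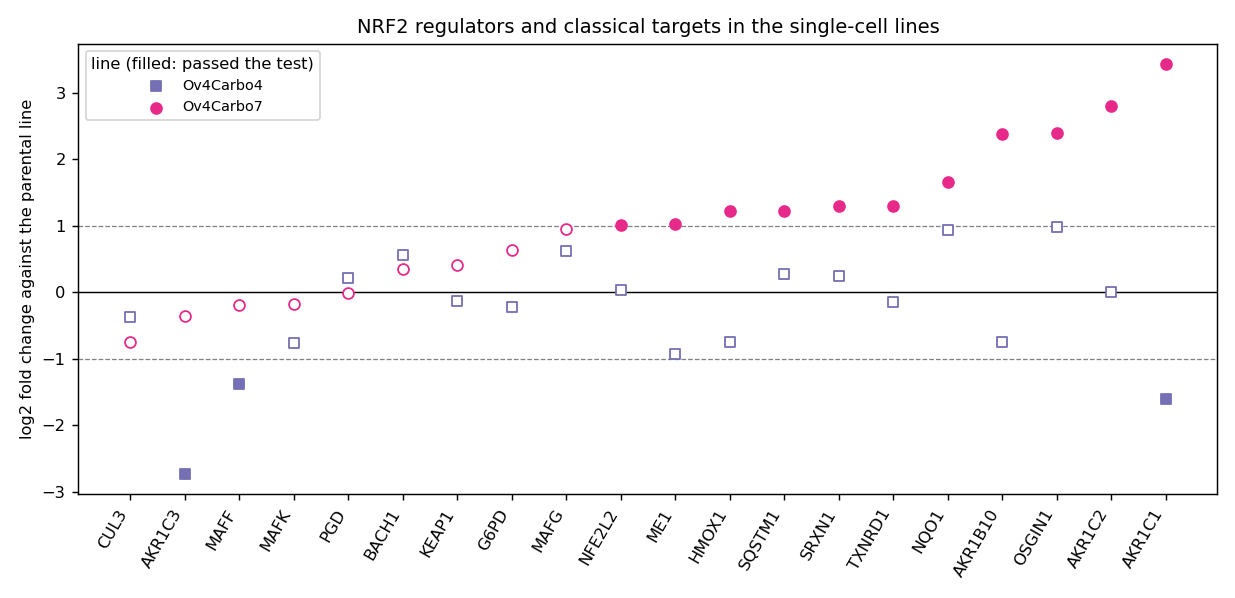
Log2 fold change against the parental line (vertical axis) of 20 NRF2 regulators and classical targets (horizontal axis) in Ov4Carbo4 (squares) and Ov4Carbo7 (circles). Filled symbols passed the adjusted p and fold limits, which 11 genes did in Ov4Carbo7 (all higher) and 3 in Ov4Carbo4 (all lower, 0 of them on the log2(RPKM + 1) scale).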

How the data were processed

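RNA from cultured cells was prepared with a column kit and sequenced from polyA-selected libraries, per the labels' protocols. The authors' deposited values are log2 RPKM normalized with cqn (conditional quantile normalization), going by their table's name. BWA 0.7.15-r1140, HTSeq and the builds hg19 and GRCh37 are named in the submitters' processing notes. How reads shared between genes were counted is not given in the sources used here. A threshold in the table's name is not explained. The table held 0 missing values and 0 pairs of identical samples, and 0 columns were without a sample.

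Gene symbols were matched by Ensembl identifier for 15585 of 16604 genes, and no coordinates of the authors' build are given. A model with a coefficient per line was fitted to all genes and samples with limma 3.58.1 in R 4.3.3 (two-sided, default settings), with Benjamini-Hochberg adjustment over all genes within each of 10 contrasts. Figures and tables used Python 3.11.15, pandas 2.3.3 and matplotlib 3.10.9. On simulated data for Ov4Cis against the parental line, 179 of 200 genes changed by 2 log2 units were recovered among 16604 genes, with 6 false calls. The simulation drew normal noise, with the same spread for a gene in all lines and no other differences between lines. The real lines differ in both, so these counts check the code and do not measure performance on these data.

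The members and lists were chosen with earlier results of these data known. All members are named, with the 3 nearest genes of each called member, except for items not reported here. Up to 4 genes of each list are named, those with a line mean of at least log2 RPKM 1 called in most contrasts. PTGES, GGT5, GPX7, ABCC2, NQO1, AKR1C1 and AKR1C2 are named outside this rule, chosen after their values were seen. The alternatives were quantile normalization, median centring, a variance trend, a filter at mean log2 RPKM 1, only the groups compared, log2(RPKM + 1), a title series term, a replicate block, an adjusted p under 0.01 and each sample left out. Dropping the fold limit was added after seeing the data. No row of read counts was used, so p-values measure only the spread between these replicates, pooled over the 5 lines and moderated over all genes. The spread of a line outside a contrast therefore enters too, such as that of MGST2 in Ov4Carbo (SD 0.75).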

Additional observations from a re-analysis of the deposited data

Results flagged for a closer look

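MGST1 was called in opposite directions against the parental line in different derived lines, and the difference between those lines was itself tested. It was higher by 5.39 log2 units in Ov4Carbo7 than in Ov4Carbo4 (limma adjusted p = 1.17e-09), with all 3 samples of Ov4Carbo7 above all 3 of Ov4Carbo4. It was higher by 4.48 in Ov4Cis than in Ov4Carbo4 (adjusted p = 2.05e-09), again with no overlap.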

How the results depend on the processing

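Of 432 values of called members under the alternatives, 427 stayed past the threshold in the same direction and 5 fell under it, with 0 reversed. Those 5 concerned MGST1 in Ov4Carbo7 against Ov4Carbo and MGST2 in Ov4Cis against Ov4Carbo4. Of the 432, 270 were leave-one-out fits, where leaving out a sample of neither compared line cannot move the log2 fold change. The replicate block, only the groups compared and the stricter adjusted p leave it unchanged too. Sample medians were nearly equal before any further normalization. The total is therefore no measure of robustness. Counts of called members stayed within 1.5 times under quantile normalization, median centring, the variance trend, log2(RPKM + 1), the filter, the stricter adjusted p and only the groups compared. With a term for the title series the count against the parental line became 2 in Ov4Carbo and 2 in Ov4Carbo4, and that of Ov4Cis against Ov4Carbo became 1. Without a minimum fold (added after seeing the data) the counts against the parental line were 8 in Ov4Cis and 6 in Ov4Carbo, then 5 in Ov4Carbo4 and 7 in Ov4Carbo7. They were 6 for Ov4Carbo4 against Ov4Carbo (42.2% of all genes), 4 for Ov4Carbo7 against Ov4Carbo (36.6%) and 6 for Ov4Carbo7 against Ov4Carbo4 (51.1%). For Ov4Cis they were 4 against Ov4Carbo (34.2%), 6 against Ov4Carbo4 (44.0%) and 4 against Ov4Carbo7 (39.2%). Leaving out 1 sample gave 1 to 3 members in Ov4Carbo against the parental line, 1 to 2 in Ov4Carbo4 against Ov4Carbo, and 0 to 1 in Ov4Cis against Ov4Carbo. It gave 2 to 4 in Ov4Carbo7 against Ov4Carbo, and 9 to 10 members in the F-test, where GSTM2 was lost without replicate 3 of Ov4Cis (adjusted p = 0.0778). Against Ov4Carbo, MGST3 entered in Ov4Carbo7 at 1.11 without replicate 2 of Ov4Carbo, and in Ov4Carbo4 GSTM4 entered at 1.03 without replicate 1 of Ov4Carbo and MGST2 at -1.08 without its replicate 3. Beyond the smaller number of samples, the cause was not tested.

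The replicate block left every count of called members within 1.5 times of the main one, 2 in Ov4Cis and 1 in Ov4Carbo, then 1 in Ov4Carbo4 and 3 in Ov4Carbo7 against the parental line. Whether the replicate numbers pair samples across lines is not known. Deviations of same-numbered samples correlated between -0.497 and 0.535 over 30 pairs, of which 12 exceeded 0.1. For samples with other numbers the range was -0.51 to 0.61 over 60 pairs, of which 26 exceeded 0.1.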
